A study of Drosophila melanogaster with 6 samples.

Results

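Fly blood cells, the hemocytes, are mostly plasmatocytes, macrophage-like cells that take up bacteria and the remains of dying cells. They are made under the control of the GATA transcription factor Serpent (srp). They carry surface receptors of several families, among them the Nimrod proteins with their EGF-like repeats, the class C scavenger receptors and the CD36 family. A set of 10 hemocyte marker and phagocytosis receptor genes was followed here in young and old flies. The members were srp, the plasma clotting protein gene Hml, the surface marker gene He, the bacterial receptor genes NimC1 and eater, the scavenger receptor genes Sr-CI, Sr-CII and Sr-CIV, and the apoptotic cell receptor genes crq and drpr. They were chosen by gene symbol, each had 1 probe set on the array, and they are 10 of 14535 gene symbols.

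Whole flies of the stock y(1), w67c23(2) were compared at 45 days (old age group) and at 3 days (young age group), all cultured at 20 °C in a mixed population of females and males. Each sample pooled 100 female and 100 male flies, and each age group had 3 samples, each on its own Affymetrix GeneChip. The old samples are named Old4 to Old6 and the young ones Young1 to Young3, after the columns of the deposited table. Values are log2 fluorescence after GCRMA, a normalization that corrects the background with the probe sequence, and they ran from 1.51 to 15.05. Because whole flies were used, a change in hemocyte number, in RNA per hemocyte or in other tissues cannot be told apart.

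A probe set was called differentially expressed where the fold difference between the age groups was above 2, p was under 0.05 and the false discovery rate (FDR, Benjamini-Hochberg over 18769 probe sets) was under 0.15, all from limma's moderated test. The fold difference is negative where the old age group was lower. Of the 10 members, srp was called lower in old flies and 0 were called higher. Among all probe sets, 2.96% were called lower and 3.45% higher, 6.41% in all, so 1 of 10 is near the background. The methods' t-test also called 1 lower and 0 higher, with 1062 of all 18769 probe sets called. At an unadjusted p under 0.05 in limma there were 4 members, srp, Hml, Sr-CIV and drpr. The share of all probe sets at that unadjusted p was not counted, so these 4 have no background to be set against. The median difference over the members was 0.12 on the log2 scale, against 8.17e-04 over all probe sets tested. Values of the age groups did not overlap in 6 members, and 28.7% of all probe sets had such groups. These backgrounds take in every probe set, also the 54.2% with all 6 values under log2 4, and were not matched for signal.

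The members split by signal. For NimC1, eater, He and Sr-CII all 6 values were under log2 4, where the scale ends for probe sets without clear signal, as for 54.2% of all probe sets. Another 5 members (srp, Hml, Sr-CI, crq and drpr) were above log2 4 in every sample, and Sr-CIV lay on both sides of it. NimC1, eater and He are markers of hemocytes, and they gave no signal above the low end in whole flies of either age. As markers of the cell type they are therefore uninformative here. Hml, a standard marker of plasmatocytes, did give signal in every sample and was not called. Of the members that did give signal, srp, crq and drpr are also known from other tissues. Levels of different genes are not set against each other, because each probe set has its own response.

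**Figure D1:**
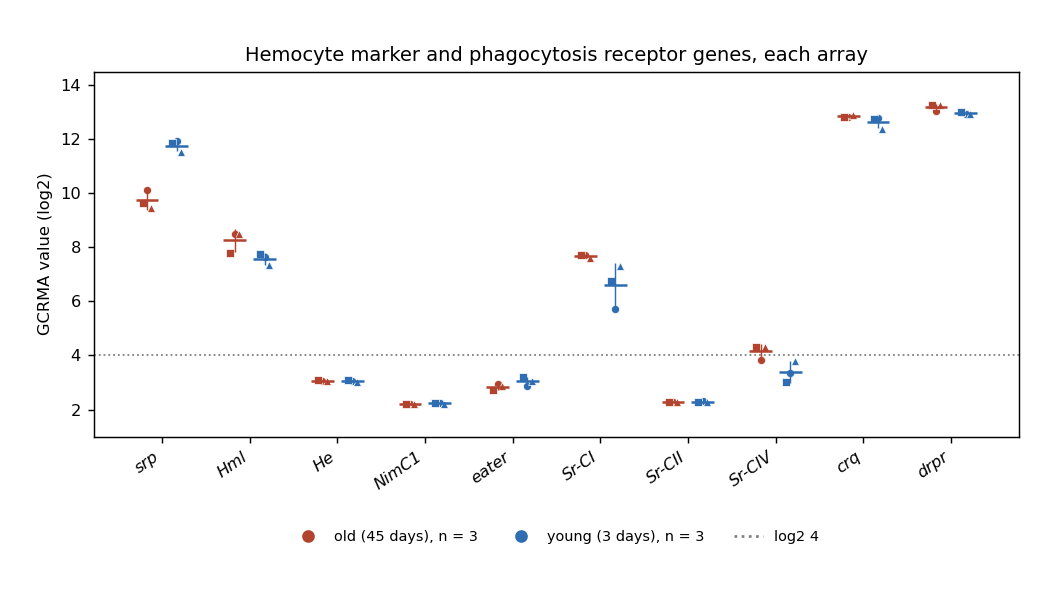
Values of the 10 members in each array (log2 after GCRMA, y axis), old samples left and young samples right for each gene. Circles, squares and triangles are Old4, Old5 and Old6 or Young1, Young2 and Young3, the horizontal lines are means, the vertical lines are 1 SD (n = 3) and the dotted line is log2 4. The srp values are clearly apart, at 9.46 to 10.11 in old and 11.53 to 11.93 in young flies, and 4 genes stay under log2 4 throughout.

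The fall of srp was the clearest change among the members. Serpent is required for the formation of both hemocytes and the fat body. Its probe set (FBgn0003507) was at 10.11, 9.64 and 9.46 in Old4, Old5 and Old6, against 11.93, 11.85 and 11.53 in Young1, Young2 and Young3. Every old sample was thus below every young sample, and the gap of 1.42 between the groups was wider than the range within either one. The means were 9.74 ± 0.34 in old and 11.77 ± 0.21 in young flies (SD, n = 3), a log2 difference of -2.03 with a 95% interval from -2.57 to -1.49. This is a fold difference of -4.09 (FDR 0.00646, limma). With a sample left out the difference ran from -2.22 to -1.89, and srp was called in every such fit.

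Some marker genes of other tissues were also called lower. Of 6 fat body markers, each by its brightest probe set, 2 were called lower in old flies, 0 higher and 4 were not called. By brightest probe set, 3.9% of genes on the array were called lower and 4.39% higher. These shares are the background for this list and for each list below. The mean of that list was 10.13 to 10.59 in old and 11.50 to 12.60 in young samples, with no overlap. Its difference of -1.54 came mostly from Fbp2 (-6.80) and Lsp2 (-2.20, not called). Without these, a choice made after their values were seen, the mean was 12.52 to 12.67 in old and 12.42 to 12.86 in young samples, which overlap. In these means Fbp1 stands by its brightest probe set, which is shared with CG5335 and carries the identifier FBgn0034365. The probe set of Fbp1 alone carries FBgn0000639, so the shared one may not follow Fbp1. The perilipin gene plin1, which coats lipid droplets, was at 10.94 ± 0.13 in old and 12.29 ± 0.31 in young flies (SD, n = 3), and its fold difference was -2.54 (FDR 0.0121, limma). Fbp2, a fat body gene of late larvae, was at 2.77, 1.98 and 1.99 in Old4, Old5 and Old6, against 8.48, 8.09 and 10.56 in the young samples. The lipophorin gene apolpp differed by -0.08. The lipid transfer gene Apoltp differed by 0.82 (FDR 0.085, limma), with every old sample above every young sample, and was not called. The shared Fbp1 probe set was not called and was higher by 0.38. The probe set of Fbp1 alone was called lower, with a log2 difference of -5.60 (FDR 0.00565, limma). It was at 2.64, 2.22 and 2.23 in Old4, Old5 and Old6, against 7.31, 7.46 and 9.13 in the young samples. The means of the list thus depend on which probe set stands for Fbp1, and they were not computed with its own. The share of Fbp2 and Lsp2 in the list difference holds for the shared probe set alone. Of 7 eggshell genes made by the follicle cells, 1 was called lower. This was Vm34Ca, at 11.23 ± 1.46 in old and 13.89 ± 0.10 in young flies (SD, n = 3), and among the fits with a sample left out it was called in 1 alone, without Old4 (log2 difference -3.48). The 6 eggshell genes not called had larger log2 differences, from -5.83 (Cp16) to -4.34 (Vm26Ab). Their age groups did not overlap, but their old samples were widely scattered. The mean of the eggshell list was 12.56 in Old4, 10.27 in Old5 and 4.20 in Old6, and 13.65 to 13.73 in young samples. Old4, the highest old sample of the eggshell list, was also the highest old sample for srp. The part of these tissues in the srp difference was not tested. Without Old6 the srp difference was -1.89.

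Among the other GATA factor genes, GATAe and GATAd were above log2 4 in every sample, and neither was lower in old flies. All 5 genes of the family were looked up after the values of srp had been seen. GATAe, a regulator of the midgut that is the next protein-coding gene after srp in the RefSeq annotation, was higher in old flies at 7.71, 8.14 and 7.81, against 6.93, 6.27 and 6.96 in young flies. The groups did not overlap, and the fold difference was 2.25 (FDR 0.0409, limma). It was not called without Young2, where the log2 difference was 0.94. GATAd differed by 0.13 and was not called, and pnr and grn, under log2 4 in all samples, differed by -0.06 and -0.26 (FDR 0.228 and 0.119, limma).

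By the distance between centred values over the 6 samples, the profiles closest to that of srp among 6880 probe sets with a mean of log2 6 or more were those of Odc1, CG12721 and CG10623. Odc1 encodes an ornithine decarboxylase, an enzyme of polyamine synthesis. The root mean square distances were 0.14, 0.14 and 0.15. The log2 difference was -1.86 for Odc1, -1.83 for CG12721 and -2.02 for CG10623. Because the 6 samples form 2 separate groups, this likeness mostly reflects the size of the age difference.

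The partners of Serpent and the other regulators of the hemocyte lineage formed a list of 9 genes, of which 0 were called lower and 0 higher. Across the array, 3.9% of genes were called lower and 4.39% higher by their brightest probe set. In this list, 2 genes had an FDR under 0.05 and a fold difference under 2, and 5 were under log2 4 in all samples. Across all probe sets, 12.7% had an FDR under 0.05 with no fold criterion. In the list, 4 genes were at an unadjusted p under 0.05, with no share over all probe sets counted at that p. The methods' t-test called 0. The friend-of-GATA gene ush, whose product binds Serpent, was at 9.36, 9.56 and 9.14 in old and 10.34, 10.12 and 10.01 in young samples. The difference was -0.80 (FDR 0.0271, limma) and the groups did not overlap. The growth factor receptor gene Pvr, needed for hemocyte survival, was at 10.49, 11.02 and 10.99 in old and 10.00, 9.88 and 9.98 in young samples, a difference of 0.88 (FDR 0.0295, limma). The transcription factor gene zfh1 differed by -0.20 with an interval from -0.48 to 0.07.

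Hemolectin (Hml, FBgn0029167) is a large secreted protein of hemolymph clots and a standard marker of plasmatocytes. It was at 8.51, 7.78 and 8.51 in Old4, Old5 and Old6, against 7.64, 7.77 and 7.33 in Young1, Young2 and Young3. The groups did not overlap, but Old5 exceeded Young2 by only 0.01. The mean was 8.27 ± 0.42 in old and 7.58 ± 0.23 in young flies (SD, n = 3), a log2 difference of 0.69 with an interval from 0.03 to 1.34. Hml was not called, since its fold difference was 1.61 and its FDR 0.186 (limma). Leaving out Old5 gave 0.93 and leaving out Young3 gave 0.56. Hml met the 3 criteria in none of 14 alternative fits.

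Hemese (He, FBgn0028430), a membrane glycoprotein of hemocytes, lies next to NimC1 in the Nimrod cluster. Its values were between 3.05 and 3.11 in old and between 3.01 and 3.08 in young samples, and the difference of 0.02 was within their spread (interval from -0.04 to 0.09).

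NimC1 and Eater are the main receptors of plasmatocytes for bacteria. NimC1 (FBgn0259896) was at 2.19, 2.20 and 2.22 in old and 2.23, 2.23 and 2.21 in young samples. Its difference was -0.02, with an interval from -0.05 to 0.01. Eater (FBgn0243514) was at 2.93, 2.73 and 2.86 in old and 2.89, 3.21 and 3.04 in young samples. The groups overlapped for both genes, and the difference for eater was -0.21 with an interval from -0.47 to 0.06. At this end of the scale a difference in the transcript may not be detectable.

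NimC1 has relatives in the Nimrod family. Of 9 other Nimrod genes, 1 was called lower, 1 was called higher and 5 were under log2 4 in every sample. The shares over all genes were 3.9% lower and 4.39% higher. NimC4, also called simu, encodes a receptor that binds apoptotic cells for phagocytes and glia. It was at 2.13, 2.13 and 2.15 in Old4, Old5 and Old6, against 7.32, 8.09 and 6.69 in Young1, Young2 and Young3. All old samples were thus at the low end and all young samples far above it. NimC4 had a fold difference of -37.5 (FDR 0.00291, limma). Its size depends on the low end, since the log2 difference was -5.23 as deposited and -3.36 with values under 4 raised to 4. With values under 6 raised to 6 it was -1.36 and NimC4 was not called.

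NimB3, of the secreted group of Nimrod proteins, was at 7.88, 7.47 and 8.89 in Old4, Old5 and Old6, against 4.74, 4.81 and 6.56 in Young1, Young2 and Young3. The fold difference was 6.53 (FDR 0.0699, limma), with Young3 above the other young samples and Old6 above the other old ones. It was called in 2 of the 6 fits with a sample left out, without Young3 (log2 difference 3.30) and without Old5 (3.01), and not in those without Young1 (2.39), Young2 (2.43), Old4 (2.81) or Old6 (2.30). NimC3 was bright, at 12.59 ± 0.06 in old and 12.90 ± 0.09 in young flies (SD, n = 3), and its difference of -0.31 (FDR 0.0345, limma) did not reach the fold criterion. NimB2 differed by 0.37 and was not called. In the annotation, NimB3 stands between NimB2 and NimB4, and He and NimC1 follow NimB5.

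**Figure D2:**
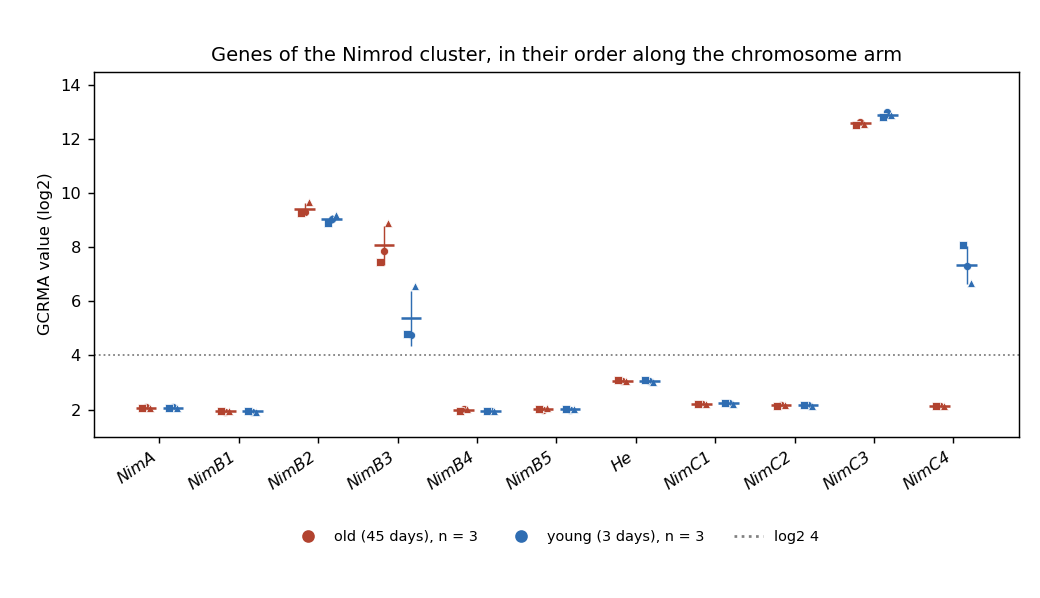
Values (log2 after GCRMA, y axis) of 9 Nimrod genes with He and NimC1, in their order along the chromosome arm, with old samples left and young samples right for each gene. Genes of other families that lie between them are left out. Symbols, lines and SD bars (n = 3) are as in the plot of the members, and the dotted line is log2 4. NimC4 is at 2.13 to 2.15 in old flies and 6.69 to 8.09 in young flies, and NimB3 at 7.47 to 8.89 in old flies and 4.74 to 6.56 in young flies.

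Scavenger receptors of class C bind bacteria and other polyanionic ligands. Sr-CI (FBgn0014033) was at 7.71, 7.73 and 7.61 in Old4, Old5 and Old6, against 5.73, 6.76 and 7.32 in Young1, Young2 and Young3. Old samples were close to each other and above all young samples, while the young ones were spread over 1.58, with Young1 the lowest. The means were 7.68 ± 0.06 in old and 6.61 ± 0.80 in young flies (SD, n = 3). The log2 difference was 1.08, with an interval from -0.02 to 2.18, and the fold difference of 2.11 was above 2. Sr-CI missed the other criteria, with an unadjusted p of 0.0532 and an FDR of 0.217 in limma. Sr-CI was called in 3 of 14 alternative fits, and the difference was 1.43 without Young3 and 0.64 without Young1.

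Sr-CIV (FBgn0031547) was at 3.84, 4.30 and 4.32 in old and 3.35, 3.02 and 3.80 in young samples. The groups did not overlap, with Old4 above Young3 by 0.04. The log2 difference was 0.77, with an interval from 0.11 to 1.42, a fold difference of 1.70 (FDR 0.145, limma) that missed the fold criterion. With values under 4 raised to 4 the difference was 0.21. Sr-CII (FBgn0020377) was at 2.27, 2.26 and 2.29 in old and 2.30, 2.29 and 2.28 in young samples, and the groups overlapped. Sr-CIII, the other class C gene and the neighbour of Sr-CI in the annotation, was under log2 4 in all samples and differed by less than 0.01.

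**Figure D3:**
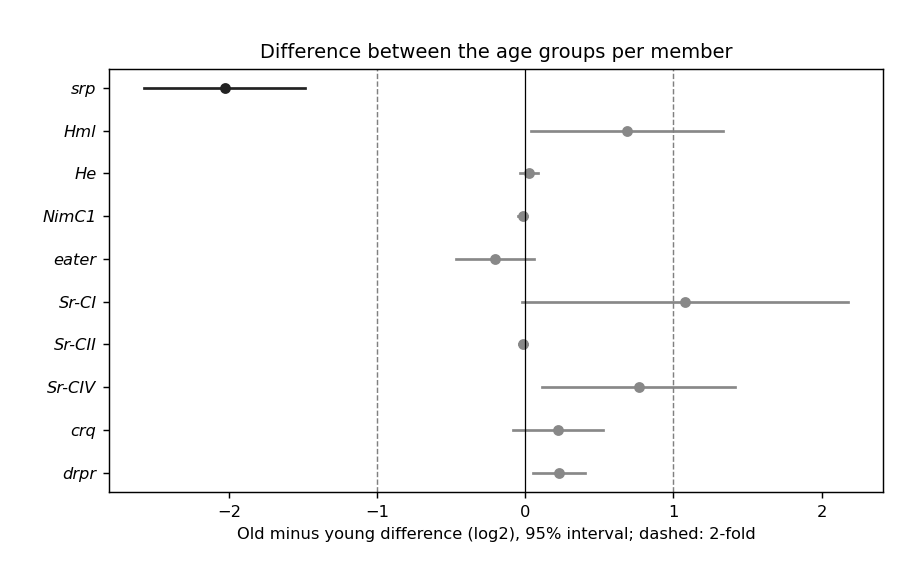
Old minus young log2 difference of each member (x axis, points) with its 95% interval from limma (lines). Dashed lines mark a 2-fold difference and black marks the gene that met the criteria. Only srp, at -2.03, has an interval wholly outside the dashed lines, while those of Hml, Sr-CIV and drpr lie above 0 without being wholly outside them.

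Croquemort and Draper recognize apoptotic cells. Croquemort (crq, FBgn0015924) is a CD36 family receptor of macrophages. Its probe set has the suffix that the manufacturer uses for probes shared between transcripts of different genes, and the table pairs it with crq alone. It was at 12.82, 12.84 and 12.90 in old and 12.77, 12.75 and 12.39 in young samples. The groups did not overlap, with a gap of 0.05. The log2 difference of 0.22 had an interval from -0.09 to 0.52, a fold difference of 1.16 that was not called (FDR 0.394, limma). Young3 was the lowest, and without it the difference was 0.09.

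Draper (drpr, FBgn0027594) is an engulfment receptor of phagocytes, of glia that clear neuronal debris and of follicle cells. It was at 13.06, 13.28 and 13.26 in Old4, Old5 and Old6, against 12.94, 13.02 and 12.95 in Young1, Young2 and Young3. The groups did not overlap, although Old4 exceeded Young2 by only 0.04. The means were 13.20 ± 0.12 in old and 12.97 ± 0.04 in young flies (SD, n = 3). The log2 difference of 0.23, with an interval from 0.05 to 0.40, was a fold difference of 1.17 (FDR 0.111, limma). The upper bound was 1.32-fold, so a change above 2-fold was outside the interval. Of 7 glial markers, 1 was called higher, moody (11.74 ± 0.24 in old and 10.31 ± 0.21 in young flies, FDR 0.00908 in limma), which encodes a receptor of the blood-brain barrier glia, and 0 were called lower. The median difference of the list was -0.31. The sodium pump subunit gene nrv2 had 12.11 ± 0.10 in old and 12.69 ± 0.04 in young flies (SD, n = 3), a difference of -0.58 (FDR 0.00628, limma) under the fold criterion. Eaat1, alrm and Gs2 differed by -0.54, -0.36 and -0.31, and repo and wrapper by 0.92 and 0.59, none of them called. The mean of the glial list was 9.03 to 9.44 in old and 8.94 to 9.29 in young samples, which overlap. The part of glia in the drpr value was not tested.

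Genes that act with these receptors or mature the phagosome formed a further list. Of 14 such genes, 1 was called higher, 0 were called lower and all 14 were above log2 4. The called gene was scb, which encodes the alphaPS3 integrin that pairs with the Itgbn product in phagocytosis. It was at 12.40, 12.55 and 12.84 in old and 11.00, 10.92 and 11.00 in young samples. The groups were far apart, and the fold difference was 3.09 (FDR 0.00323, limma). Its partner gene Itgbn differed by -0.03 with an interval from -0.37 to 0.32. The adaptor gene ced-6, which acts on Draper, differed by less than 0.01, with an interval from -0.19 to 0.20. The hemocyte GTPase gene Rac2 was at 12.42, 12.55 and 12.44 in old and 11.71, 11.89 and 11.98 in young samples, a difference of 0.61 (FDR 0.0124, limma) under the fold criterion. The endosomal GTPase genes Rab5, Rab7 and Rab14 differed by 0.30, -0.01 and 0.07 and were not called.

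Among 13 other CD36 and class C genes on the array, 3 were called lower and 1 higher, against 3.9% and 4.39% of all genes. Snmp1, a receptor component of pheromone-sensing neurons, was at 9.74, 10.81 and 9.83 in old and 5.39, 5.22 and 4.97 in young samples. Its fold difference was 30.6 (FDR 0.00259, limma). The gene ninaD, needed to take up carotenoids, was at 2.05 or less in all old samples, against 6.66, 6.78 and 7.29 in Young1, Young2 and Young3. Its fold difference was -29.5 (FDR 7.47e-04, limma). Its log2 difference was -4.88 as deposited and -2.91 with values under 4 raised to 4, and ninaD was not called with values under 6 raised to 6 (-0.91). CG10345 had a fold difference of -2.55 (FDR 0.0376, limma), and it was not called with values under 6 raised to 6. CG2736 had -2.15 (FDR 0.0603, limma) and was not called without Young2, Young3, Old5 or Old6. The receptor gene pes, which takes part in the uptake of mycobacteria, was close to crq in its difference, at 0.22 (FDR 0.111, limma), and was not called. Of the 4 genes called, Snmp1 and ninaD have known roles, in smell and in carotenoid transport, and neither is known as a receptor for phagocytosis.

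Plasmatocytes also secrete basement membrane proteins, as do the fat body and follicle cells. Of 8 such genes, 4 were called lower, 0 higher and 1 was under log2 4 in all samples. Over all genes, 3.9% were called lower and 4.39% higher, a background not matched for signal. The median difference was -1.05. The collagen IV genes Col4a1 and vkg had fold differences of -2.67 (FDR 0.0041, limma) and -2.43 (FDR 0.00167, limma). Col4a1 was at 11.05, 11.38 and 11.35 in old and 12.52, 12.74 and 12.77 in young samples. SPARC, a collagen-binding protein gene, had -2.54 (FDR 0.00462, limma), and the peroxidasin gene Pxn had -2.46 (FDR 0.022, limma). In all 4, every old sample was below every young sample. The Pxn difference was -0.16, and was not called, with values under 6 raised to 6. The mean of the list was 9.19 to 9.30 in old and 10.04 to 10.24 in young samples, with no overlap. This is not particular to the matrix genes. List means were also lower without overlap for the fat body, eggshell, Nimrod, CD36 and GATA lists. They were higher without overlap for the engulfment and lamellocyte lists. Of the 6 fat body markers given above, 2 were called lower by their brightest probe sets. Fbp1 was called lower by its own probe set, which is not its brightest. Whether the fat body or follicle cells had a part in this was not tested.

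Crystal cells and lamellocytes are the other hemocyte classes. All 3 crystal cell markers (lz, PPO1 and PPO2) were under log2 4 in every sample, with 0 called by limma and 0 by the methods' t-test. The 1 at an unadjusted p under 0.05 was PPO2. It was at 2.07, 2.10 and 2.12 in old and 2.32, 2.36 and 2.37 in young samples. Its difference of -0.25 (FDR 0.00327, limma), at the low end of the scale, was under the fold criterion. Of 6 lamellocyte markers, 1 was called higher, 0 were called lower and 1, PPO3, was under log2 4 in all samples. ItgaPS4, an integrin gene, was at 3.17, 4.65 and 5.84 in Old4, Old5 and Old6, against 2.10, 2.11 and 2.11 in the young samples. Old samples were scattered, and it was called in 1 of the 6 fits with a sample left out, the one without Old4 (log2 difference 3.14). With values under 4 raised to 4 the difference was 0.83, and ItgaPS4 was not called. The methods' t-test did not call it either. The other lamellocyte markers, atilla, mys, msn and cher, were above log2 4 in every sample. They differed by -0.25, 0.44, 0.10 and -0.16, and none was called. Whether their signal in whole flies came from lamellocytes was not tested.

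**Figure D4:**
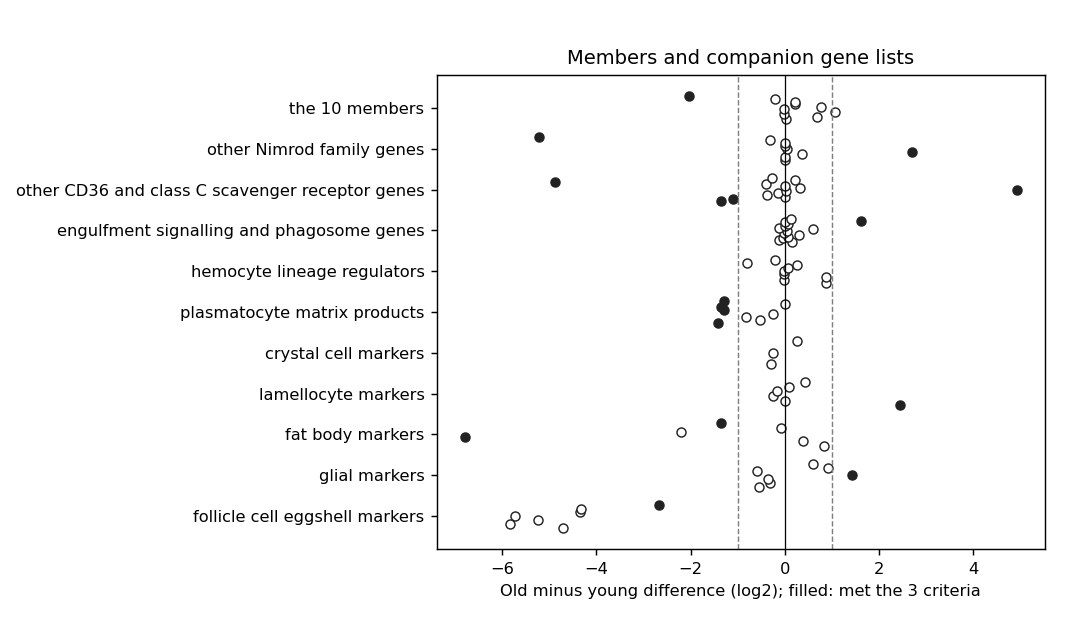
Old minus young log2 difference (x axis) of each gene, by its brightest probe set, for the 10 members and 10 companion lists (rows). Filled points met the 3 criteria and dashed lines mark a 2-fold difference. The members lie within 2-fold apart from srp (-2.03) and Sr-CI (1.08), while the Nimrod and CD36 relatives reach from -5.23 to 4.94 and 4 matrix genes lie between -1.42 and -1.28.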

How the data were processed

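RNA of whole flies was amplified and hybridized to GeneChip Drosophila Genome 2.0 arrays, and the authors normalized the scans with GCRMA in Partek 6.5. The deposited table holds log2 values for 18952 probe sets, unfiltered and with replicates kept apart. It has gene symbols but no annotation release, so no positions are given, and RefSeq (Release 6) served for gene order alone. After 183 control probe sets were left out, 18769 were fitted in R 4.3.3 with limma 3.58.1, with age group as the only term. The methods name SAM and a t-test, and the methods' t-test (equal variances) was run as an alternative, beside other variance priors, array weights, centring, scaling, floors on low values, a filter on dim probe sets, a stricter FDR, averaged probe sets and each sample left out. The fit was tested on simulated data.

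The old columns carry the numbers 4 to 6 and the labelled samples 1 to 3, so old columns are known by group only. Per the labels the replicates are biological. The number of arrays limits the precision. The paper speaks in places of females only. Its methods and the labels, followed here, give both sexes. No batch is given in the sources used here.

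The members and lists were chosen with earlier results of these data known. Named were all members, the called genes of 10 companion lists (82 genes, 81 on the array), the brightest gene of a list with no call, and the 3 profiles closest to a called member. GATA factors and other companion genes were named after their values were seen. Where a gene has more than 1 probe set, its brightest one stands for it.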

Additional observations from a re-analysis of the deposited data

How the results depend on the processing

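The call of srp held in every alternative and with each sample left out. Sr-CI was called higher with the trended and robust variance prior, when dim probe sets (no group mean of log2 6 or more) were left out, and without Young3. Sr-CIV was called higher with array weights, where Young2 had a weight of 7.96 against 0.46 for Young1 and 0.39 for Young3. Young2 was the lowest sample for Sr-CIV (3.02), and without it the difference was 0.58. In the fits that called Sr-CI or Sr-CIV 1 member was called higher, against 0 in the main fit. The count ran from 0 to 1 with a sample left out. The cause was not tested. Over all probe sets, 792 were called with values under 6 raised to 6, where dim differences are lost by construction, and 2390 at an FDR under 0.05 with no fold criterion (chosen after seeing the data), against 1203. Of the companion genes, each counted once, 11 were called lower and 5 higher, where 3.9% and 4.39% of all genes were called. With values under 6 raised to 6, 6 were called lower, and at an FDR under 0.05, 3 were called higher. With a sample left out, 9 (without Young2 and others) to 14 (without Old4) were called lower and 3 (without Young1, Young2 or Old6) to 6 (without Old4) higher.
No paired analysis was possible because the old columns do not carry the replicate numbers of the labels.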
